A study of Mus musculus with 25 samples.

Results

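The control arm of the study comprised 11 male SAMP8 mice, of 25 mice in the series, taken by the rule that the sample label begins with Control. SAMP8 is an inbred senescence-prone mouse strain used as a model of accelerated aging, so every animal described here carries that background. The control mice received vehicle alone, corn oil by oral gavage, from the age of 8 months and for 3 months, and the gastrocnemius, a calf muscle, was then profiled by 3′ mRNA sequencing with 1 library per mouse. The 14 mice given thymol are not described. Mice are named by the last number of their label. Each value is a log2 CPM, the log2 of a gene's reads relative to the size of its library after the authors' scaling between libraries, or a percent of a library's reads. Because the method sequences 1 tag near the end of each transcript, a gene's reads are not multiplied by its length, and levels of different genes were compared as tags per transcript.

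The gastrocnemius of a mouse is built mostly of fast fibers, which shorten quickly and draw on glycogen and phosphocreatine, with a smaller population of slow fibers, which rely on oxidative metabolism. Each fiber type carries its own versions of myosin, troponin, tropomyosin and the calcium pump, so these genes report the fiber mix of the piece of muscle that was extracted. Between the fibers lie capillaries, fibroblasts, nerves, macrophages and fat cells, and tendon attaches at the muscle's ends.

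Libraries held 4463818 to 8418789 reads over the 8829 genes of the table, with a median of 7554333, and log2 values of the 55 pairs of mice correlated at a Pearson r of 0.938 to 0.973. Some libraries stood apart from the rest. Mouse 18 lay at 33.6 on the first principal component, which carried 19.4% of the variance between mice, where the other mice lay between -17.9 and 11.2. Mouse 19 lay at 35.4 on the second component, which carried 13.7%, where the others lay between -13.5 and 2.02. The markers were those of skeletal muscle. A row in the table was held by 15 of 16 listed fast-fiber genes and 11 of 12 slow-fiber genes, and the fast-fiber genes were among the most abundant. These markers cannot tell the gastrocnemius from another fast muscle.

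The control transcriptome was concentrated in a small number of genes. The 16 most abundant genes each took at least 1% of the reads and together reached 50% of them, whereas 735 genes were needed to reach 80%. The 10 most abundant genes took 43.3% ± 2.40 (SD, n = 11) of a library, from 39.5% in mouse 19 to 47.2% in mouse 18. Transcripts of the mitochondrial genome led the list of genes with a row in the table. mt-Nd4, which encodes a subunit of respiratory complex I, took 12.5% ± 2.20 (SD, n = 11), from 9.57% to 17.49%. mt-Nd2 followed at 6.28% ± 0.978, mt-Nd1 at 3.77% ± 0.337 and mt-Cytb, the cytochrome b of complex III, at 3.60% ± 0.426. These mitochondrial genes were highest in mouse 18, except that mt-Nd1 was highest in mouse 31.

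Sarcomere genes filled most of the next ranks. Ttn, the giant spring protein titin, stood at rank 3 with 4.50% ± 0.625 (SD, n = 11). Its longest transcript in GENCODE M21, of 106824 bases, holds 2 internal runs of 10 or more A, a feature that can prime oligo-dT synthesis inside a transcript, and 28 of the other 29 genes among the 30 most abundant hold none. Whether internal priming added to the titin reads was not tested. Myh4, the fast IIb myosin heavy chain, took 3.37% ± 0.615, Acta1, skeletal actin, 2.61% ± 0.127, and Tpm1, a tropomyosin, 2.41% ± 0.285. The fast troponins Tnnc2 (2.30% ± 0.151), Tnnt3 (1.95% ± 0.187) and Tnni2 (1.28% ± 0.106) came at ranks 9, 10 and 13. Ckm, the muscle creatine kinase that regenerates ATP from phosphocreatine, took 1.47% ± 0.157 and Neb, nebulin of the thin filament, 1.30% ± 0.190. Mylpf, Pvalb and Atp2a1, the fast regulatory light chain, the calcium buffer parvalbumin and the fast calcium pump, lay between 1.08% and 1.22%. Of the 30 most abundant genes, Malat1, a nuclear noncoding RNA at 0.565% ± 0.137, was the only one outside the function lists.

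Ranked by function, the mitochondrial genome came first with 27.1% ± 3.56 of the reads (SD, n = 11), between 22.003% in mouse 23 and 33.9% in mouse 18. This covers the 7 mitochondrial genes with a row. Others, such as mt-Co2, mt-Co3 and mt-Atp6, had none and could not be ranked. Fast-fiber genes took 13.6% ± 1.36 from 15 genes and sarcomere genes common to all fibers 13.5% ± 1.08 from 39 genes, so neither of these lists stood above the other beyond the spread between mice. Glycolysis and glycogen genes took 2.94% ± 0.226 from 25 of 28 listed genes. Aldoa, an aldolase, at 0.906% and Pygm, muscle glycogen phosphorylase, at 0.858% led those with a row. Gapdh, Pgam1 and Pgm2 had no row, so their reads are not counted. The 82 nuclear genes of oxidative phosphorylation took 2.41% ± 0.249, less than a single mitochondrial transcript such as mt-Nd1. Excitation-contraction coupling followed with 1.69% ± 0.146, led by Trdn, triadin of the calcium release unit, and Ryr1, the release channel itself. Leaving out mice 18 and 19 moved the mitochondrial genome to 26.9% and fast-fiber genes to 13.7%.

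Below 1% the order of the lists ran through enzymes, protein turnover and matrix. The tricarboxylic acid cycle took 0.564% ± 0.0575, ADP and ATP exchange 0.533% ± 0.0468, the 46 cytosolic ribosomal genes 0.489% ± 0.0449 and the 42 proteasome genes 0.404% ± 0.0225. Fatty acid use (0.341% ± 0.0663), atrophy genes (0.339% ± 0.0501), slow-fiber genes (0.325% ± 0.217), extracellular matrix (0.317% ± 0.0991) and translation factors (0.314% ± 0.0138) lay within their spreads of each other. Mitochondrial ribosomal genes closed the lists of many genes at 0.279% ± 0.0205, and Mb, myoglobin that stores oxygen in oxidative fibers, stood alone at 0.246% ± 0.0902. In all, 18 lists with 503 genes accounted for 67.1% of the reads. Listed genes without a row, among them Eef1a1 of the translation factors and Cpt1b of fatty acid use, add nothing to these shares.

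**Figure D1:**
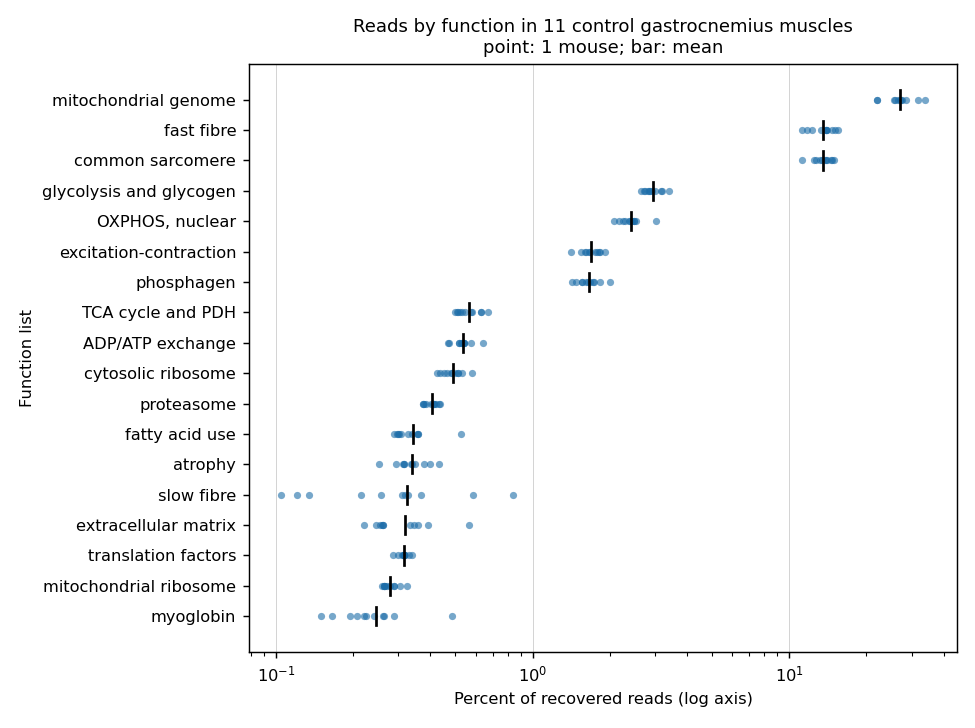
Percent of recovered reads, on a log axis, taken by each of 18 function lists in the 11 control mice, with 1 point per mouse and a bar at the mean. The 7 mitochondrial genes with a row sit at 22.003% to 33.9%, and the slow-fiber list has the widest spread, from 0.105% to 0.835%.

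Lists differed widely in how even they were between mice. Proteasome genes and translation factors varied 1.16-fold and 1.18-fold between the lowest and the highest mouse, and the fast-fiber list 1.38-fold. Slow-fiber genes varied 7.98-fold, from 0.105% in mouse 23 through a median of 0.310% to 0.835% in mouse 14, and 5.58-fold without mouse 14. Matrix genes varied 2.57-fold, from 0.220% in mouse 19 to 0.566% in mouse 18, and 1.59-fold without these mice. Myoglobin varied 3.26-fold, from 0.149% in mouse 19 to 0.487% in mouse 14, and 1.93-fold without mouse 14. In whole muscle, fewer cells of a type and less RNA per cell cannot be told apart.

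Among the 4 adult myosin heavy chains, Myh4 took 91.1% ± 3.79 of their summed reads (SD, n = 11). It ranged from 80.5% in mouse 14 to 94.6% in mouse 23. Myh2, of the oxidative IIa fibers, took 4.19% ± 1.79, Myh1, of the IIx fibers, 3.68% ± 1.41, and Myh7, the slow type I chain, 1.05% ± 0.791. Mouse 14 held the highest share of Myh1, Myh2 and Myh7 alike, at 7.58%, 8.99% and 2.99%, with the lowest share of Myh4.

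Markers of cells other than muscle fibers took small shares. The 12 adipocyte genes with a row took 0.0927% ± 0.0724 of the reads, the 13 fibroblast genes 0.254% ± 0.0870, the 16 endothelial genes 0.0657% ± 0.00888, the 15 leukocyte genes 0.0293% ± 0.0151 and the 5 satellite-cell genes 0.00871% ± 0.00120. Adipocyte markers ranged 8.52-fold, from 0.0343% in mouse 31 to 0.292% in mouse 19, but 3.65-fold without mouse 19, where mouse 35 was highest at 0.126%. Leukocyte markers ranged 4.20-fold, from 0.0148% in mouse 15 to 0.0620% in mouse 18, and 3.46-fold without mouse 18, while endothelial markers ranged 1.58-fold. Blood genes, the hemoglobins, took 0.0416% ± 0.0191 and were highest in mice 14 (0.0788%) and 19 (0.0775%), and the tendon list was highest in mice 14 (0.0566%) and 32 (0.0516%). Smooth-muscle genes took 0.372% ± 0.0350, most of it Des, which skeletal fibers also express, at 0.310%, and the 8 nerve and Schwann-cell genes took 0.0160% ± 0.00586. Of the 14 lymphocyte genes listed, 0 had a row in the table analysed here.

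Programs that respond to the state of the animal were expressed at modest levels. Heat-shock genes took 0.583% ± 0.0515, led by Hsp90ab1 at 0.201%. The glucocorticoid and fasting list took 0.185% ± 0.0616, from 0.141% in mouse 31 to 0.364% in mouse 19, and reached no more than 0.192% without mouse 19. The clock list took 0.157% ± 0.0133. Genes of endoplasmic reticulum stress took 0.131% ± 0.00519, immediate-early genes 0.0573% ± 0.0127, interferon-response genes 0.0559% ± 0.0152, denervation and regeneration genes 0.0429% ± 0.00700 and sterol and lipid synthesis genes 0.0196% ± 0.00459. Immediate-early genes were highest in mouse 14 at 0.0887% and lowest in mouse 10 at 0.0448%.

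The spread between mice was then described gene by gene. The median SD over the 11 mice was 0.28 log2 units, against a median of 0.13 that counting reads alone would give, so that most of the spread lay above counting error. Spread fell with level, and each gene's SD was therefore divided by the trend of SD on mean. An SD of at least 2 times the trend was found for 414 genes, 4.69% of the 8829, and for 374 without mice 18 and 19. The genes at either side of this threshold were A930033H14Rik at 2.001 and Lmod1 at 1.999 times the trend. Mouse 18 held the highest value in 127 of the 414, mouse 14 in 82 and mouse 19 in 77, whereas mouse 19 held the lowest in 78 and mouse 31 in 74.

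**Figure D2:**
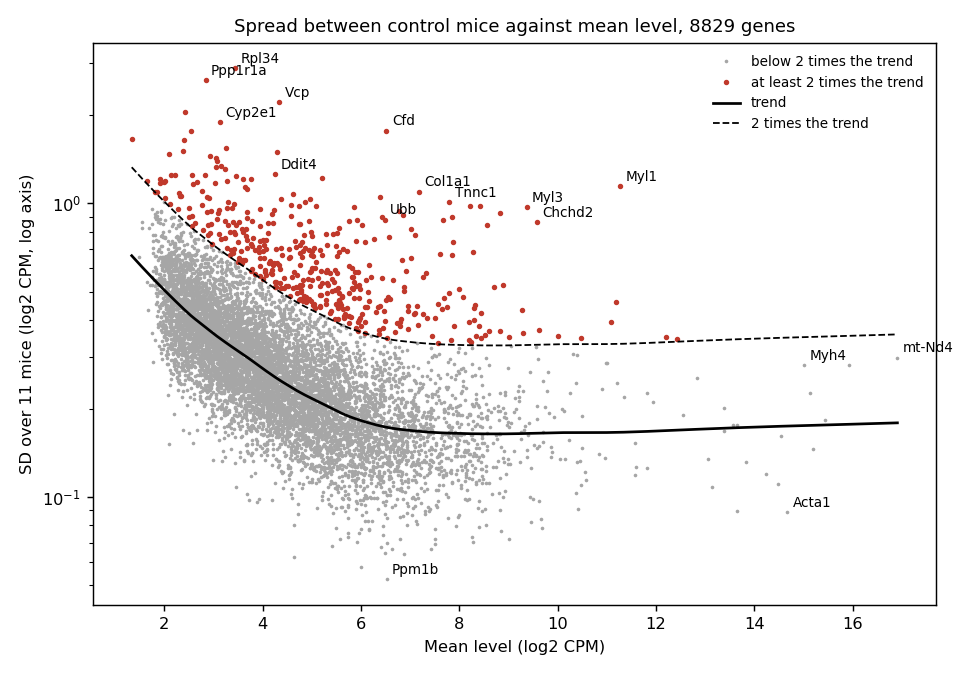
SD of log2 CPM over the 11 control mice, on a log axis, against mean log2 CPM for 8829 genes, with the trend (solid line) and 2 times the trend (dashed line). The 414 genes in red lie at or above the dashed line, with Cfd, Rpl34 and Vcp the farthest above it.

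The 30 genes with the highest SD for their mean fell into recognizable groups. Slow-fiber genes supplied 9 of them: Tnnc1, Tpm3, Myh7, Myl3, Tnnt1, Myl2, Tnni1, Atp2a2 and Myh6. Fat-cell genes supplied Cfd, Scd1, Adipoq, Cyp2e1 and Pck1, and matrix genes supplied Col1a1, Col3a1, Col1a2 and Ccdc80. Cfd, the complement factor adipsin secreted by fat cells, had the highest ratio of all, at 10.2 times the trend, with 3.67 log2 CPM in mouse 31, a median of 6.59 and 9.87 in mouse 19. Col1a1, the main collagen chain, ranged from 4.94 in mouse 19 through 7.33 to 9.14 in mouse 18. Pdk4, which shuts off pyruvate oxidation in fasting, ranged from 4.98 to 7.79, and Ddit4, an inhibitor of mTORC1, from 1.92 to 6.87, both highest in mouse 19. Ubb, a polyubiquitin gene, departed in a single animal, at 4.13 in mouse 32 with a median of 6.59.

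At the other end, several housekeeping genes hardly varied. Among genes with a mean of at least 6 log2 CPM, Ppm1b, a protein phosphatase, varied least for its mean, between 6.45 and 6.59 with an SD of 0.05 against 0.06 from counting alone. The chaperone genes Dnajc7 and Hspa4 had SDs of 0.06, and Kdelr1, a receptor that returns proteins to the endoplasmic reticulum, and Ddb1, an adaptor of a ubiquitin ligase, of 0.07. Acta1 was the steadiest of the most abundant genes, between 14.52 and 14.80 log2 CPM with an SD of 0.09. Genes used as loading references differed in this respect. Eef2, Sdha and Ywhaz had SDs of 0.10, 0.11 and 0.11, Rplp0, Vcl and Actb of 0.15, 0.15 and 0.18, and Hprt of 0.36. B2m, with an SD of 0.43, exceeded 2 times the trend.

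A distinct kind of variability was a split of the mice into a high and a low set with at least 1 log2 unit between the sets and 3 or more mice in each, which held for 9 genes. Rpl34, a protein of the large ribosomal subunit, lay between 6.14 and 6.77 in mice 10, 15, 23, 27 and 31, and between -0.12 and 1.49 in the other mice. Ppp1r1a, an inhibitor of protein phosphatase 1, lay between 4.77 and 5.41 in mice 10, 14, 15, 18, 19 and 31, and between -0.40 and 0.60 in the others. Vcp, an ATPase that extracts ubiquitinated proteins, lay between 6.29 and 6.78 in mice 10, 15, 18, 19 and 27, and between 1.23 and 2.93 in the others. Mice were sorted differently by each gene. Only mice 10 and 15 were in the high set of all 3 genes.

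Myl1, the fast essential myosin light chain, was the most abundant gene with such a split. It lay between 12.43 and 13.04 log2 CPM in mice 1, 14, 19 and 31 and between 10.30 and 10.70 in the other mice. In share of reads this spanned 0.116% to 0.890%, while its partners Mylpf and Myh4 showed no split. Chchd2, a mitochondrial protein, lay between 10.05 and 10.60 in mice 1, 10, 18, 19, 23 and 27 and between 8.59 and 8.79 in the others. Cish, a feedback inhibitor of cytokine signaling, lay between 3.29 and 3.67 in mice 10, 19 and 31 and between 5.07 and 6.69 in the others. Slc25a25, a mitochondrial carrier of ATP, Pdk1, a pyruvate dehydrogenase kinase, and Kbtbd12 completed the set, with 2.10 to 5.46, 2.76 to 5.13 and 4.37 to 6.41 log2 CPM in all. The positions of these genes on GRCm38 were spread over several chromosomes, with Rpl34 at chr3:130726831-130730398, Vcp at chr4:42979963-43000507 and Ppp1r1a at chr15:103530279-103538003. Words of 31 bases were pooled over the last 500 bases of all annotated transcripts of a gene. Rpl34 had 2096 such words, of which 12.5% were shared with the pseudogene Rpl34-ps1. The pseudogene had 324 words, so a larger part of its own words was shared. Vcp overlapped 1700022I11Rik on the opposite strand. How reads were assigned to Rpl34 and Vcp is therefore uncertain.

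**Figure D3:**
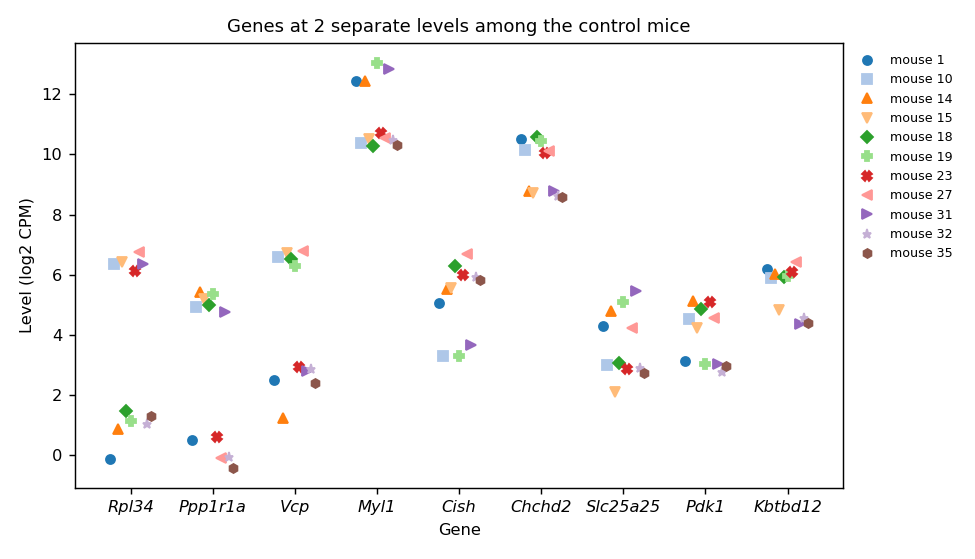
Level in log2 CPM of the 9 genes at 2 separate levels among the control mice, with 1 symbol per mouse. Rpl34, Ppp1r1a and Vcp show the widest empty zones, and the mice in the high set differ from gene to gene.

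Groups of genes that vary together were sought first in the lists, by the median Pearson r over the 11 mice of all pairs of genes within a list, given as a description without a test. Across all pairs of the 8829 genes the median r was -0.001, with quartiles of -0.241 and 0.240, and 1.16% of pairs reached 0.7. Slow-fiber genes stood highest at 0.946, and the value was still 0.940 at its lowest when a mouse was left out. Adipocyte genes (0.862), hemoglobins (0.767), leukocyte genes (0.751), tendon genes (0.726) and fibroblast genes (0.677) followed, and without mice 18 and 19 these were 0.732, 0.647, 0.713, 0.772 and 0.562. Hba-a1 and Hba-a2 shared 91.9% of the words in the last 500 bases of their transcripts, so their reads cannot be split with confidence.

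Energy genes moved together more loosely. Nuclear genes of oxidative phosphorylation had a median r of 0.550, mitochondrial-genome transcripts of 0.530 and fatty acid genes of 0.498, the last falling to 0.163 without mouse 14. The glucocorticoid and fasting list, at 0.472, fell to 0.125 without mouse 19. Fast-fiber genes reached 0.342, glycolysis 0.307, endothelial genes 0.257, cytosolic ribosomal genes 0.161, mitochondrial ribosomal genes 0.162, atrophy genes 0.089, proteasome genes 0.051 and clock genes 0.052. An SD of at least 2 times the trend was found for 0 of the 42 proteasome genes and 3 of the 46 cytosolic ribosomal genes, where 4.69% of all genes reached it.

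The 200 genes with the highest SD for their mean were then grouped by correlation alone, without use of the lists, by average linkage at r of 0.7. This gave 11 clusters of 4 or more genes, holding 116 genes. The last gene included and the first left out had SDs of 2.605 and 2.602 times the trend. Without mice 18 and 19 the same procedure gave 17 clusters, and 19.4% of the gene pairs that had shared a cluster still did.

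The largest cluster, of 33 genes, joined matrix and macrophage genes. It held the collagens Col1a1, Col3a1 and Col1a2, fibronectin (Fn1), Sparc and Mmp2, together with Csf1r, the receptor of the macrophage growth factor, Lyz2, C1qa, Apoe and the chemokine gene Ccl8, and the mast-cell proteases Cpa3 and Tpsb2. Mouse 18 lay 1.73 log2 units above the gene means in this cluster, and the next highest, mouse 10, 0.45 above. The median r of 0.825 fell to 0.584 without mouse 18, and in a grouping without it no more than 4 of the 33 genes were placed together. Ccl8 illustrates the weight of that animal, with 6.30 log2 CPM in mouse 18, 4.41 in mouse 10, a median of 2.38 and 0.23 in mouse 14. A related cluster of 7 genes, Inmt, Selenop, Adh1, Sult1a1, Apod, B2m and Ly6c1, was also highest in mouse 18, at 0.93 above the gene means, and lowest in mouse 31, at -0.90, and in a grouping without mouse 31 0 of the 7 shared a cluster.

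**Figure D4:**
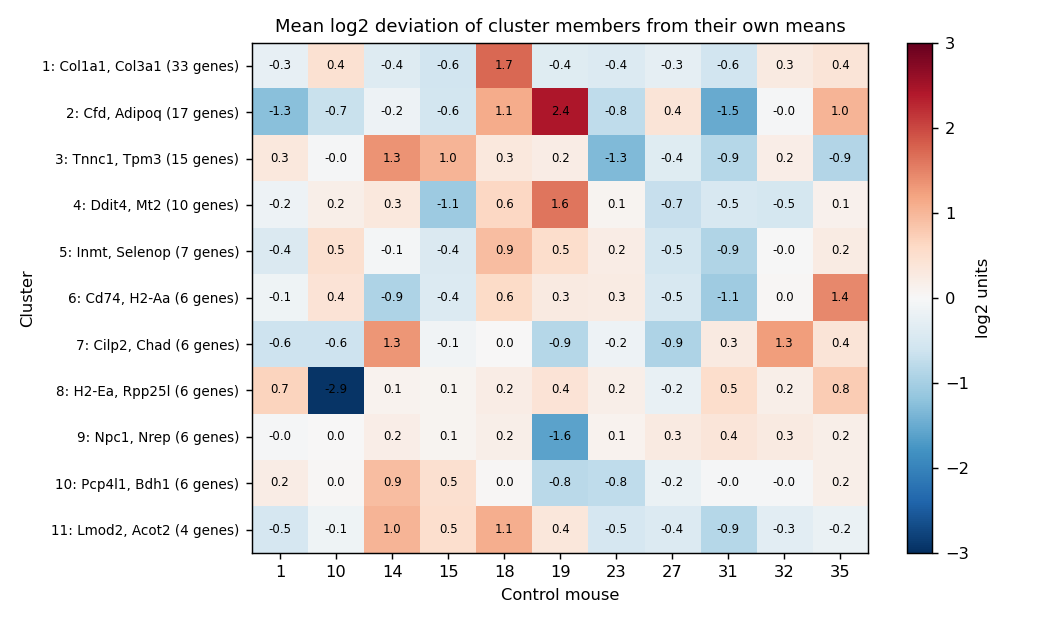
Mean deviation in log2 units of the members of each of 11 clusters (rows, named by their first 2 genes) from their own means in each control mouse (columns). Cluster 1 stands out in mouse 18 at 1.73, cluster 2 in mouse 19 at 2.42 and cluster 8 in mouse 10 at -2.94.

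Slow-fiber genes formed a cluster of 15 with a median r of 0.929, which no library carried alone, since the value was 0.903 at its lowest when a mouse was left out and 0.945 without mice 18 and 19. At least 12 of the 15 genes were grouped together whichever mouse was left out. Mouse 14 lay 1.34 log2 units above the gene means and mouse 15 1.03 above, with mouse 23 at -1.33. Beside the slow myosin chains and troponins, the cluster held Casq2, the calcium store protein of slow and cardiac muscle, Myoz2 and Ankrd2 of the slow sarcomere, Strit1, a small activator of the calcium pump, and Ablim1 and Hspb7. Myh7 itself ranged from 6.62 log2 CPM in mouse 23 through a median of 8.61 to 9.62 in mouse 14, and Tnni1, slow troponin I, from 5.31 through 7.02 to 8.27 in the same animals. Mice 23, 31 and 35 were low for both genes and mice 14 and 15 were high.

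How widely the slow program extended was asked by regressing every other gene on the Myh7 level over the 11 mice with limma. At an adjusted p under 0.05, 14 of 8828 genes rose with Myh7 and 0 fell, which is 0.159% of the genes tested, and 409 had an unadjusted p under 0.05. The list of slow-fiber genes held 9 of the 14, out of 10 tested, with a median slope of 0.91 log2 units per log2 unit of Myh7 against -0.0017 over all genes. Tpm3, slow tropomyosin, rose by 0.997 ± 0.05 (SE) per unit, with a limma adjusted p of 2.31e-09. Atp2a2, the slow calcium pump, rose by 0.89 ± 0.05 (limma adjusted p = 6.49e-09) and Tnnc1, slow and cardiac troponin C, by 1.012 ± 0.06 (limma adjusted p = 2.74e-08). Outside the list, Myh6, Strit1, Myom3, Inpp4b and Ablim1 also rose. Myh6, whose product is a cardiac myosin, had a slope of 1.05 ± 0.06. Of the words pooled from the last 500 bases of its transcripts, 16.15% are found in Myh7, and Myh7 overlaps the antisense gene Mhrt. The reads of Myh6 and Myh7 may therefore not be fully separate.

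Other parts of muscle metabolism were not called with Myh7. The 15 fast-fiber genes had a median slope of -0.06 and the 25 glycolysis genes of -0.06, with 0 called in each list by limma. The 26 fatty acid genes had a median slope of 0.11, with 23 of 26 positive and 0 called, and the 82 nuclear genes of oxidative phosphorylation one of 0.01. Voom called 13 genes with Myh7 in place of 14. The most negative association, that of Osbpl6, had a slope of -0.34 ± 0.08 and a limma adjusted p of 0.162. A separate cluster of 6 genes carried the oxidative genes Mb, Ldhb, the lactate dehydrogenase of oxidative muscle, Fabp3, a fatty acid binding protein, and Bdh1, with Pdlim1 and Pcp4l1. It was highest in mouse 14, at 0.93 above the gene means, and lowest in mouse 19, at -0.81, and 2 of the 6 were grouped together without mouse 14 or without mouse 23. Mb ranged from 10.47 in mouse 19 through 11.17 to 12.22 log2 CPM in mouse 14.

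Promoters of slow-fiber genes are shown because these genes moved together most closely. The 250 bases before the RefSeq start of Myh7, Tnnc1 and Myl3 on GRCm38.p6 are printed 5′ to 3′ on the gene's strand, at chr14:54994627-54994876 (minus strand), chr14:31208062-31208311 and chr9:110763428-110763677 (plus strand). Capitals mark matches on either strand to the M-CAT element CATTCC, bound by TEAD factors, and to the CACC box CCCACC, both known from muscle promoters.
Myh7: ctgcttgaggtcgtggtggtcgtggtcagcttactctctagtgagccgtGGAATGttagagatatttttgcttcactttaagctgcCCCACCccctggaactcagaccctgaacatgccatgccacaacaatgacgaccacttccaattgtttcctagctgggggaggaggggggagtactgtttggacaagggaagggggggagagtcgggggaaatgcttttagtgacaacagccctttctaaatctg
Tnnc1: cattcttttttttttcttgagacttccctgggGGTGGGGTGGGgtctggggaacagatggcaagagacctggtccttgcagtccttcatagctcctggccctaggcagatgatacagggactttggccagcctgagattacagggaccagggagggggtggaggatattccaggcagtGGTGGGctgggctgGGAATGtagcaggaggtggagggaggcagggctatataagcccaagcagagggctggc
Myl3: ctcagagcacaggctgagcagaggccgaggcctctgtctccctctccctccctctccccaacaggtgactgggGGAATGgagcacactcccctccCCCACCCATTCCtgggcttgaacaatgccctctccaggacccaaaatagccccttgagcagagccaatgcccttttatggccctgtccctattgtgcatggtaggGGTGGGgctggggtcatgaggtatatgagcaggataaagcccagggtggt
CATTCC was present in 4 of the 14 cluster members with a promoter in the table (Tnnc1, Myh7, Myl3 and Myh6), against 12.6% of 27025 promoters of the same length. CCCACC was present in 7 of the 14, against 28.2%. The motif of the muscle transcription factor MEF2 was searched as well. It was present in 1 of the 14 (Myoz2), against 3.23% of all promoters, and had 0 matches in Myh7, Tnnc1 and Myl3. Matches of CCCACC overlapped each other in Tnnc1, and motifs and genes were chosen after their expression was known.

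Fat-cell genes formed a cluster of 17 with a median r of 0.893, and of 0.792 without mice 18 and 19. It held the secreted proteins Cfd, Adipoq (adiponectin) and Retn (resistin), the lipid droplet genes Plin1 and Cidec, the lipase Lipe, Fabp4 and the fatty acid synthase Fasn. Mouse 19 lay 2.42 log2 units above the gene means, mouse 18 1.11 above and mouse 31 -1.50 from them. Adipoq ranged from 2.38 log2 CPM in mouse 31 through a median of 4.09 to 7.23 in mouse 19. Pck1, which supplies glycerol backbone for fat, held 5 reads in mouse 1 and 900 in mouse 19, or -0.12 and 6.87 log2 CPM.

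**Figure D5:**
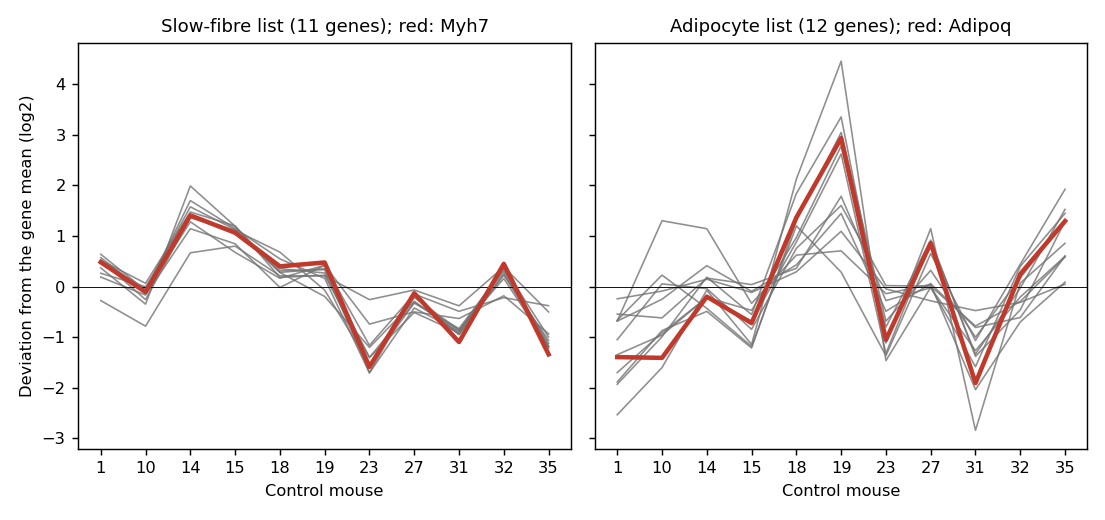
Deviation in log2 units of each gene of the slow-fiber list (left, 11 genes) and of the adipocyte list (right, 12 genes) from its own mean in the 11 control mice, with Myh7 and Adipoq in red. Slow-fiber genes peak in mouse 14 and dip in mouse 23, whereas most adipocyte genes peak in mouse 19.

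Regression on Adipoq with limma called 24 of 8828 genes, or 0.272%, of which 23 rose and 1 fell, and 719 had an unadjusted p under 0.05. The adipocyte list held 8 of the 23, out of 11 tested, with a median slope of 0.48 against -0.00051 over all genes. Cfd rose by 1.15 ± 0.07 (SE) per log2 unit of Adipoq (limma adjusted p = 1.89e-07), Plin1 by 0.87 ± 0.07 (limma adjusted p = 1.57e-06) and Retn by 0.87 ± 0.07 (limma adjusted p = 3.81e-06). Nmrk2, a muscle kinase of NAD synthesis, fell by 0.30 ± 0.05 (limma adjusted p = 0.00676), from 9.77 log2 CPM in mouse 31 to 7.93 in mouse 19. Mouse 19 weighed on the count, which was 14 without it, 8 without mice 19 and 31, and 7 without mice 18 and 19. All 24 genes kept the sign of their slope under each of these.

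Antigen-presentation genes varied in another order of mice. A cluster of 6 held the class II genes Cd74, H2-Aa and H2-Eb1 and also Mbp and Fmo2, and was highest in mouse 35 at 1.45 log2 units above the gene means and lowest in mouse 31 at -1.07. In a grouping without mouse 35, 0 of the 6 shared a cluster, and without mouse 14 it was 2. Cd74, the invariant chain that escorts class II molecules, ranged from 2.99 in mouse 31 through 4.59 to 6.08 log2 CPM in mouse 35. Regression on Cd74 called 4 of 8828 genes with limma, or 0.0453%, all of which rose, and 677 had an unadjusted p under 0.05. These were H2-Aa (slope 0.89 ± 0.09 SE, limma adjusted p = 0.000193), H2-Eb1 (0.82 ± 0.12, limma adjusted p = 0.0222), B2m, the light chain of class I molecules (0.42 ± 0.07, limma adjusted p = 0.02825), and H2-Ab1 (0.67 ± 0.11, limma adjusted p = 0.0345). The leukocyte list held 3 of the 4, out of 14 tested, with a median slope of 0.60 against -0.00052 over all genes. Slopes of this size were not particular to that list. The 12 adipocyte genes had a median slope of 0.63 on Cd74, with 12 of 12 positive and 0 called. The 8 nerve and Schwann-cell genes had one of 0.49, with 7 of 8 positive and 0 called. H2-Aa was called in each of the 14 alternatives that called 5 or fewer genes. The count fell to 2 without mouse 1, 18 or 31 and to 1 without mouse 14 or 15 or with the library number of the label as a covariate, and rose to 11 without mouse 23 and to 7 without mice 18 and 19. Without mouse 35 it was again 4, but of these H2-Aa alone had been called before.

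The promoters of H2-Aa and H2-Eb1 are shown because class II genes share a known Y box, searched here as CTGATTGG on either strand and set in capitals. They lie at chr17:34287824-34288073 (minus strand) and chr17:34305617-34305866 (plus strand) of GRCm38.p6.
H2-Aa: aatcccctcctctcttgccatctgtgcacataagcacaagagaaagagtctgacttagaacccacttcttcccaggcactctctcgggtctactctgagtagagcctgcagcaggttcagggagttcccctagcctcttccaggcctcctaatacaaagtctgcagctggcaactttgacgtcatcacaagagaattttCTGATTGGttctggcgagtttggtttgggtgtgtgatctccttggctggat
H2-Eb1: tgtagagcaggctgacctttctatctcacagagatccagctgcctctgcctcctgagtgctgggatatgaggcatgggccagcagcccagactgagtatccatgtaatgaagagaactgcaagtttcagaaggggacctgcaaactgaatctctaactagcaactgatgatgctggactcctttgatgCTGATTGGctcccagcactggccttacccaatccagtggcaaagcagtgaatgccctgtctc
CTGATTGG was present in 2 of the 3 cluster members with a promoter in the table, against 4.07% of all promoters. Each of the printed promoters held 1 copy.

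Stress-hormone and metal-response genes formed a cluster of 10. It held Ddit4, the metallothioneins Mt1 and Mt2, Glul, glutamine synthetase, Per1, Cebpd, Sgk1 and Nfkbia, genes known to respond to glucocorticoids, with Arrdc2 and Tob2. Mouse 19 lay 1.62 log2 units above the gene means and mouse 15 -1.08 from them, and the median r of 0.836 was 0.686 without mouse 19, where 4 of the 10 were grouped together. Mt2 reached 6.95 log2 CPM in mouse 19 and 6.14 in mouse 18, with a median of 4.39 and 3.92 in mouse 1, and Sgk1 ranged from 5.58 in mouse 15 to 7.32 in mouse 19. Mouse 19 thus held the highest values of the fat-cell cluster and of this one. On the Adipoq level, the 18 genes of the glucocorticoid and fasting list had a median slope of 0.19 against -0.00051 over all genes, with 17 of 18 positive and 0 called by limma, and without mouse 19 the median slope was 0.05 with 12 of 18 positive.

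Mt1 and Mt2 neighbor each other on chromosome 8, and their promoters are shown with the core of the metal response element, TGCNCNC on either strand, in capitals. They lie at chr8:94178839-94179088 and chr8:94172368-94172617 of GRCm38.p6, both on the plus strand.
Mt1: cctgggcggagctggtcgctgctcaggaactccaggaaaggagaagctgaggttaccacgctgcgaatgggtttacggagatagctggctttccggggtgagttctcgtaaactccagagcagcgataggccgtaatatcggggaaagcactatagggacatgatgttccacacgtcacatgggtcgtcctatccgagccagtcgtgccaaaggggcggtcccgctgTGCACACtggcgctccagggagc
Mt2: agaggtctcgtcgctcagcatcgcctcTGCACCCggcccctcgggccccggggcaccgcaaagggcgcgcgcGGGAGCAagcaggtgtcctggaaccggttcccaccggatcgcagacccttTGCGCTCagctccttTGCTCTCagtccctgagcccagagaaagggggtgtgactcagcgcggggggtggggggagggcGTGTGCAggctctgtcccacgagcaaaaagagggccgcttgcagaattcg
Mt2 held 5 matches and Mt1 held 1 in these windows. The Mt1 window ends at 94179088, past the annotated gene start at 94179082, whereas the Mt2 window ends at 94172617, before the start at 94172664. The windows thus lie differently relative to the genes, so the counts cannot be compared between Mt1 and Mt2. The core is short and was present in 43.8% of all promoters and in 7 of the 9 cluster members with a promoter in the table. Among the other clusters its presence ran from 0 of 3 members, in that with Cd74, to 5 of 5, in that with Itpa.

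Regression on 3 further genes of variable programs gave no call with limma. Pdk4, a target of fasting and glucocorticoids, had 0 genes called of 8828, or 0%, with 439 at an unadjusted p under 0.05 and 0 called by voom, although 1 gene, Mrps12, was called without mouse 19. The 18 genes of the glucocorticoid and fasting list had a median slope of 0.32 on Pdk4 against -0.0014 over all genes, with 16 of 18 positive, and of 0.11 without mouse 19. Adipocyte genes had a median slope of 0.66 on Pdk4 with 11 of 12 positive, or 0.28 without mouse 19, and the 5 hemoglobin-list genes one of 0.43 with 5 of 5 positive. None of these lists held a called gene, and the part of fat cells and blood in the values of Pdk4 was not tested. Dbp, an output gene of the circadian clock, was steady, between 5.59 and 6.46 log2 CPM, and had 0 calls by limma, or 0%, 394 at an unadjusted p under 0.05 and 0 by voom. Its clock list of 17 genes had a median slope of -0.10.

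Fos, an immediate-early transcription factor, held 1 read in mouse 19 and 90 in mouse 1, with a median of 2.56 log2 CPM. Limma called 0 genes with Fos, or 0%, with 742 at an unadjusted p under 0.05, and 1 gene, Trf, without mouse 18. Voom, which weights by depth, called 17, of which 16 fell and 1 rose. Those that fell included the fat-cell genes Adipoq, Cidec, Plin1, Retn and Pck1. Under limma the 12 adipocyte genes had a median slope of -0.50 on Fos against -0.0027 over all genes, with 0 of 12 called, and of -0.33 without mouse 19. The 21 other immediate-early genes had one of 0.03. Mouse 19 held both the lowest Fos and the highest adipocyte share, and its part in the voom calls was not tested.

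Tendon and cartilage genes formed a cluster of 6, Cilp2, Chad, Angptl7, Prg4, Fmod and Comp. Mice 14 and 32 lay 1.32 and 1.26 log2 units above the gene means and mouse 27 -0.92 from them. In groupings without mouse 14 or mouse 32, 0 and 1 of the 6 stayed in the group. Comp, a matrix protein of tendon and cartilage, ranged from 2.61 in mouse 19 through 3.51 to 5.30 log2 CPM in mouse 14. A cluster of 4, Lmod2, Acot2, Slc25a34 and Ucp2, was highest in mice 18 and 14, at 1.08 and 1.01, and lowest in mouse 31 at -0.86, and 1 of the 4 stayed in the group without mouse 10 and 2 without mouse 18.

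In a further pair of clusters a single animal was low. In the first, of 6 genes, mouse 10 lay at -2.94 log2 units from the gene means, and the median r of 0.820 was 0.075 without it. H2-Ea, a class II chain, had 0 reads in mouse 10, with 17 to 238 in the other mice, and 0 reads of 8358967 allows up to 3 reads. Itpa, an enzyme that clears inosine triphosphate, held 3 reads in mouse 10 and 24 to 106 elsewhere, and 1810024B03Rik held 2 and 24 to 98. Mfap1a held 8 reads and 26 to 162. Rpp25l (chr4:41712033-41713534) and Dctn3, which lie side by side, were lowest in mouse 10 at 3.91 and 3.93 log2 CPM, with medians of 5.77 and 5.31. Itpa, Mfap1a and 1810024B03Rik lie on chromosome 2 between positions 121491911 and 130681614 of GRCm38. Across the table, 12 genes were lower in mouse 10 than in every other mouse by at least 1 log2 unit, of 191 genes in which some mouse stood apart in this way, and mouse 18 was high for 47 of the 191 and mouse 19 for 25.

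In the second, mouse 19 lay at -1.60 log2 units from the gene means of Npc1, Nrep, Oxct1, Lynx1, Ddit3 and Phkg1, and the median r of 0.758 was 0.097 without it. Npc1, which exports cholesterol from lysosomes, was at 3.70 log2 CPM in mouse 19 with a median of 6.34 and 6.64 at most. Phkg1, a subunit of phosphorylase kinase, which activates glycogen breakdown, was at 6.66 with a median of 7.79. Oxct1, which uses ketone bodies, was at 6.69 with a median of 8.14.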

How the data were processed

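RNA from the gastrocnemius of 11 control SAMP8 mice, 1 library per mouse, had been sequenced from the 3′ end by the authors. Per the study's methods and the labels, reads were aligned with STAR 2.5.3 to GRCm38 and counted with HTSeq 0.6.1, genes with 30 reads in at least 6 samples were kept, and the deposited values are log2 CPM after scaling by the trimmed mean of M values. The strand setting of the counting is not given in the sources used here. The filter was applied over all libraries of the series, and 8553 of the 8829 genes meet it in the control mice alone.

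The deposited log2 values step in whole reads, and 100.0% of them came out whole within 0.01 read, so depth, shares of reads and counting error were taken from recovered reads. Values carry a prior of about 2 reads, so differences of low genes are understated. Reads were not deduplicated by molecular identifiers as far as the sources say, and counting error covers sampling of reads only. The SD of each gene was divided by a lowess trend (fraction 0.3) of SD on mean. The 200 most variable genes were grouped by average linkage on Pearson correlation. Regressions on 6 genes (Myh7, Fos, Dbp, Pdk4, Adipoq and Cd74) used limma 3.58.1 in R 4.3.3, two-sided, with Benjamini-Hochberg adjustment over 8828 genes for each, and the fit was tested on simulated data. No other test was run. Each p-value tests a gene's slope on the level of the regression gene against the spread of mice around the fitted line. Python 3.11.15 was used for the rest.

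Named genes were the 30 most abundant, the 30 with the highest SD for their mean, the 10 with the lowest among means of at least 6 log2 CPM, loading references, the 5 smallest p-values in each direction of a regression, cluster members and the 4 most abundant of each list. Genes at 2 levels, those low in a single mouse and the motifs were chosen after values were seen. The members and lists were chosen with earlier results of these data known. Gene positions are from GENCODE M21 and promoters from RefSeq. Some genes are not reported here.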

Additional observations from a re-analysis of the deposited data

How the results depend on the processing

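Across 399 recomputed values, 364 stayed within 1.5 times the reported count or within 1 SD of the reported share, and 35 did not. Shares made up 251 of the recomputed values, of which 235 stayed. Most of these left out 1 or 2 of the 11 mice. That cannot move a mean by 1 SD between mice, so their staying says nothing about robustness. Leaving out each mouse in turn gave 11 to 18 genes called with Myh7, 14 to 32 with Adipoq, 1 to 11 with Cd74, 0 to 1 with Fos, 0 to 1 with Pdk4 and 0 with Dbp, 386 to 447 variable genes and 10 to 16 clusters. Voom on recovered reads called 17 genes with Fos. Without mice 18 and 19, added after the data were seen, 7 genes were called with Adipoq, 7 with Cd74 and 1 with Pdk4, and there were 17 clusters. Without the 2 mice farthest from the median, 8 were called with Adipoq and 1 with Cd74, and with the library number as a covariate 1 with Cd74. Clusters numbered 6 among the 100 most variable genes and 27 among 400, as fewer or more genes entered. With mitochondrial transcripts removed from the denominator, fast-fiber genes took 18.6% and glycolysis genes 4.03% of reads. Ranking by median absolute deviation called 523 variable genes, of which 268 were among the 414. No paired analysis was possible because only the control arm was analysed.

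Depth limits the low genes most. Genes with a mean of 2 to 4 log2 CPM had a median SD of 0.36, of which counting alone would give 0.19, while above 8 log2 CPM the values were 0.17 and 0.03. Many clusters depended on single animals or on settings, and 7 of the 11 had 0 genes still together under at least 1 alternative. For the clusters with Mb and with Lmod2 this came only from settings, such as grouping 100 genes, not from leaving out a mouse. The slow-fiber cluster kept at least 12 of its 15 genes whichever mouse was left out.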

Other observations

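The remaining principal components separated other mice. On the third, which carried 11.2% of the variance, mouse 14 lay at 24.9 and mouse 23 at -21.1, the animals with the highest and the lowest slow-fiber share. On the fourth, at 9.81%, mouse 27 lay at 20.1 and mouse 1 at -16.3, and mouse 27 was also the shallowest library.

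Single animals stood apart in both directions. Beside the genes high in mouse 18 and mouse 19, 17 genes were low in mouse 18, 20 in mouse 19 and 14 in mouse 23. Interferon-response genes had a median r of 0.4003 and ranged from 0.0330% of reads in mouse 31 to 0.0753% in mouse 18, and nerve and Schwann-cell genes ranged from 0.00878% in mouse 27 to 0.0280% in mouse 35, the mouse that also held the most Cd74.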
